A study of Arabidopsis thaliana with 18 samples.

Results

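The plastid genome of Arabidopsis thaliana holds the genes left to the chloroplast from its cyanobacterial ancestor. They encode core subunits of the photosynthetic complexes, the large subunit of Rubisco, part of the plastid ribosome and the plastid's own RNA polymerase. Each gene with an array feature of its own was followed here, where a feature is a probe or probe set with 1 value per array. A gene was taken when a feature was paired with it alone and it lies on the plastid chromosome in the RefSeq gene table. This gave 63 plastid-encoded genes of 16550 genes measured in the series. Each had exactly 1 feature, and all 63 code for proteins. A further 13 plastid gene symbols were present only on features paired with several genes, and 2 symbols had no feature listed, so the 63 are not the whole plastid gene set.

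The study measured RNA from whole seedlings of 10 days on 18 one-colour arrays, in 9 groups of 2 arrays. The genotypes were a line called CRF6oe, a crf6 mutant and the wild type Col-0 (WT), and each was given 20 mM H2O2, 2 µM of the cytokinin benzyl adenine (BA) or no treatment. CRF6 (CYTOKININ RESPONSE FACTOR 6) is a nuclear gene for a transcription factor of the AP2/ERF family. The treated seedlings were sampled after 6 h, following 1 h of floating on 3 mM MES buffer, and treated and control solutions alike held 0.2% DMSO. The labels do not give the promoter of CRF6oe, the allele of crf6 or how many independent lines stand behind either, and no time is given for the untreated seedlings. Whether a group's 2 arrays stand for separate cultures is not said. The p-values rest on the spread between arrays, which may be technical, and in part on the spread of other features. No feature was paired with CRF6 alone, so the genotypes could not be checked on their target gene.

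As background, plastid genes are mostly read as long transcripts that span several genes, by a bacterial-type polymerase with plastid-encoded core subunits and by phage-type polymerases from the nucleus. The transcripts are then cut, spliced and trimmed with the help of nuclear proteins, so that the levels of neighbouring genes depend on both transcription and RNA stability. In chloroplasts a poly(A) tail marks an RNA for decay. Here cRNA was made with an oligo-dT primer, so the values may not stand for the total amount of each plastid RNA. In whole seedlings, fewer plastid-rich cells and less plastid RNA per cell cannot be told apart.

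The values lay on a log scale taken as base 2, because each array had a median of 4.73 to 4.84 over the features of 1 gene and a maximum near 14. The deposit names neither the base nor the normalization, so a fold change holds only if the base is 2. Replicate arrays correlated at r = 0.977 to 0.991 over all genes. Between a CRF6oe array and any other array r was 0.917 to 0.947, and it was 0.948 to 0.991 between any pair of crf6 or WT arrays. The CRF6oe arrays also had a higher top value over all features, 14.16 to 14.26, against 13.90 to 13.99 on the crf6 and WT arrays. For CRF6oe, an effect of the genotype and one of this set of 6 arrays cannot be told apart, which holds for every CRF6oe comparison given here.

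The plastid genes were among the brightest features on every array. Their values ran from 9.54 to 13.93. On each array 60 to 63 of them exceeded the 99th percentile of all features of 1 gene, and of the 37 genes with a WT mean over 13, 36 were plastid genes. The highest value of any gene on an array belonged to a plastid gene, at 13.83 to 13.87 on CRF6oe arrays and 13.88 to 13.93 on crf6 and WT arrays. Values of different features were not compared as amounts, since each feature has its own response.

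The median over the 63 genes was 12.73 to 12.85 on the 6 CRF6oe arrays, 13.03 to 13.09 on the 6 crf6 arrays and 13.02 to 13.11 on the 6 WT arrays. The CRF6oe medians therefore lay below all 12 others, while the crf6 and WT medians overlapped. Within those 12 arrays the genes hardly varied. The range of a gene over the 12 had a median of 0.16 and stayed under 0.25 for 56 of the 63, against a median range of 0.81 over all genes. Most genes are far dimmer, and no comparison was made at equal brightness. Among the plastid genes themselves the median range was 0.26 for those with a mean under 12, 0.20 at 12 to 13 and 0.12 over 13. Over the 6 CRF6oe arrays the median range was 0.25, against 0.73 over all genes.

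**Figure D1:**
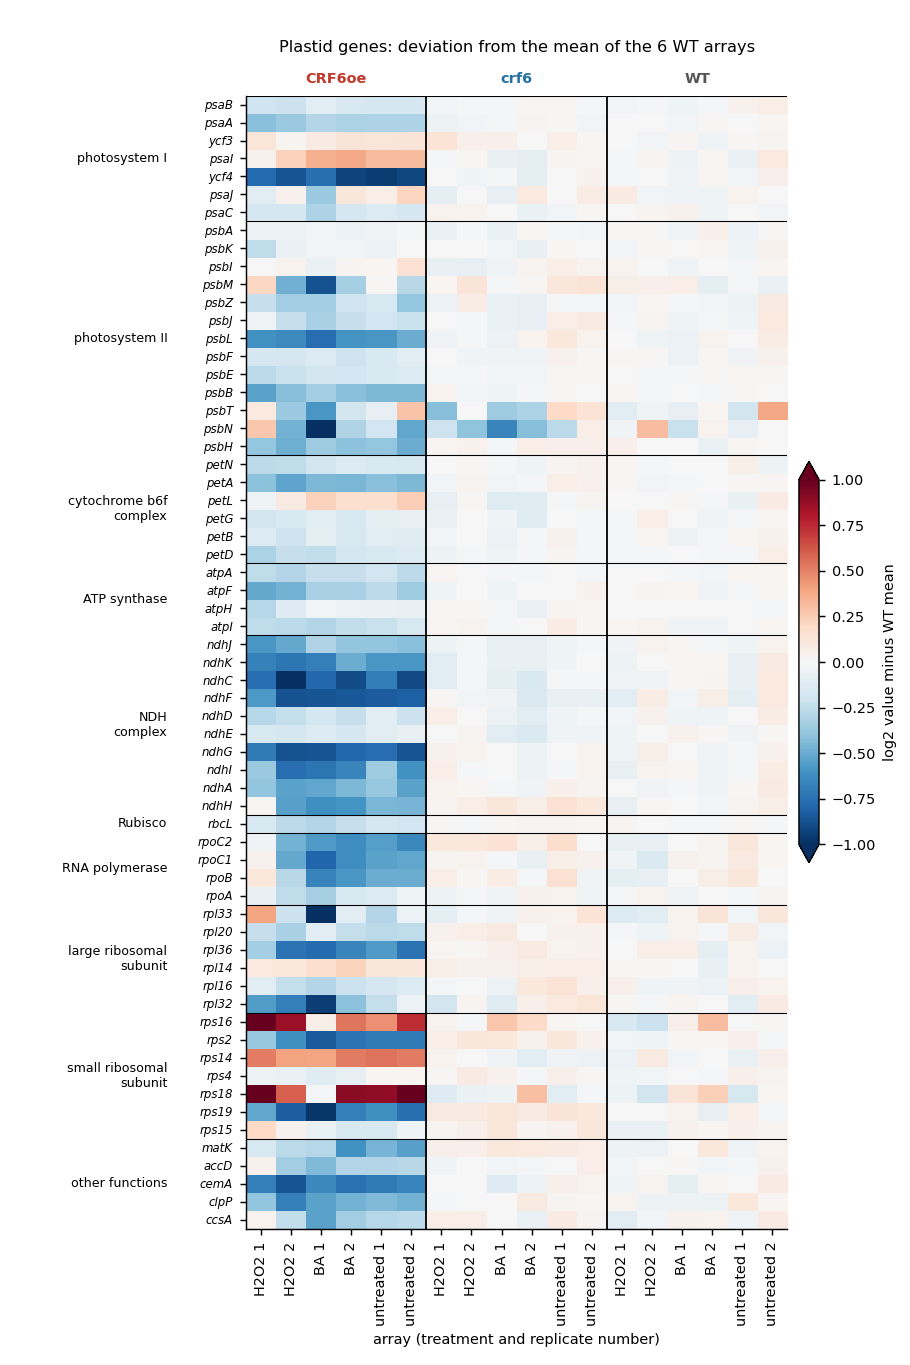
Each row is a plastid gene, grouped by complex, and each column an array. The colour is the log2 value minus the mean of the 6 WT arrays, cut at 1 either way. The CRF6oe block is mostly blue, with rps14, rps16 and rps18 in red, while the crf6 and WT blocks are mostly pale apart from psbT and psbN.

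H2O2 and BA left the plastid genes without a call in any genotype. A gene was called when its adjusted p was under 0.05 in limma, a linear model that borrows strength across features, with Benjamini-Hochberg adjustment over all features of 1 gene. With H2O2, 0 of 63 were called in CRF6oe, 0 in crf6 and 0 in WT, where 2.62%, 1.95% and 2.87% of all genes were called. With BA the count was again 0 of 63 in CRF6oe, crf6 and WT, against 0.211%, 0.236% and 0.163% of all genes. Shares this low would give few calls or none among 63 genes, so the counts of 0 do not mark the plastid genes out. At an unadjusted p under 0.05, limma gave 3 genes with H2O2 in CRF6oe, 1 with BA in CRF6oe, 1 with BA in crf6 and 0 in the other 3 comparisons.

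The changes were also small. The median log2 change over the 63 genes was -0.04 in CRF6oe, -0.03 in crf6 and -0.02 in WT with H2O2, and -0.04, -0.05 and -0.02 in the same genotypes with BA. The median standard error (SE) of a gene's change was 0.15 in each of the 6 comparisons, which is not the error of a median over 63 genes. The per-array median of the 63 varied within groups with a pooled SD of 0.0388. Below 0 were 44 genes in CRF6oe, 47 in crf6 and 46 in WT with H2O2, and 49, 54 and 46 with BA. The genes share arrays, and these counts were not tested. In WT the 95% interval of the change lay within 1 log2 unit either way for all 63 genes with H2O2 and with BA. The same held for 62 genes with H2O2 and 60 with BA in CRF6oe, and for 63 and 61 in crf6. A change of 2-fold or more in the array value was thus outside the interval of nearly every plastid gene. Of the 63 genes, 36 had a WT mean over 13, near the top of the scale. Whether their features were saturated was not tested, so the intervals hold for the array values and not for RNA amounts.

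With the changes in crf6 and WT averaged, 0 of 63 genes were called with H2O2 and 0 with BA, where 5.73% and 1.4% of all genes were. By limma, 0 of the 63 reached an unadjusted p under 0.05 in either averaged comparison. The median averaged change was -0.02 with H2O2 and -0.04 with BA, with 50 and 58 of the 63 genes below 0. The psbA gene, for the D1 reaction centre protein of photosystem II that light damages and that is constantly replaced, varied little. It read 13.90 and 13.89 on the H2O2 arrays, 13.84 and 13.93 on the BA arrays, and 13.82 and 13.89 on the untreated arrays of WT. Its log2 change was 0.04 with H2O2 and 0.03 with BA in WT. The values of psbA lie at the top of the scale, where the highest value of any feature on a WT array was 13.90 to 13.96, and whether its feature was saturated was not tested. The rbcL gene, for the large subunit of the carbon-fixing enzyme Rubisco, changed by 0.01 with H2O2 and -0.01 with BA in WT.

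The largest treatment changes in crf6 and WT were at most 0.50 log2 units, and none was called. In WT the largest was that of rps18, for a protein of the small ribosomal subunit, which read 10.36 and 10.47 with BA, against 10.07 and 10.25 untreated (log2 change 0.26, SE 0.26, limma adjusted p = 0.971). The psbT gene, for a small subunit of photosystem II, read 11.23 and 11.27 on the BA arrays of crf6, against 11.78 and 11.72 on its untreated arrays. That is a log2 change of -0.50 (SE 0.23, limma adjusted p = 0.783), and with H2O2 in crf6 it was -0.38 (SE 0.23). In WT the untreated arrays of psbT were 11.40 and 11.97, a gap wider than either change in crf6. The sign of its WT changes, -0.17 with H2O2 and -0.14 with BA, turned without the second untreated WT array, to 0.12 and 0.15. The psbN gene, which acts in photosystem II assembly and is encoded on the opposite strand of the psbB cluster, changed by -0.44 with BA in crf6 (SE 0.31) and by 0.18 with H2O2 in WT (SE 0.31).

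In CRF6oe the treatment changes spread more widely, although 0 were called. The rps16 gene, for a protein of the small ribosomal subunit, read 11.18 and 10.61 on the H2O2 arrays, against 10.21 and 10.49 on the untreated arrays. Its change of 0.54 (SE 0.21) had an adjusted p of 0.176 in limma. The rpoB gene, for the beta subunit of the plastid-encoded polymerase, read 12.01 and 11.63 with H2O2, against 11.41 and 11.41 untreated (log2 change 0.41, SE 0.16, limma adjusted p = 0.189). The 2 H2O2 arrays do not overlap the untreated ones for either gene, yet they lie further apart than the untreated pair. Both genes, and rpl32, were named for the size of their change, so a lack of overlap between so few arrays adds no support. The rpl32 gene, for a protein of the large ribosomal subunit, read 11.80 and 11.68 with H2O2 and 11.42 and 11.95 with BA, against 12.12 and 12.30 untreated. All 4 treated arrays lie below both untreated ones, with changes of -0.47 (SE 0.18, limma adjusted p = 0.182) and -0.53 (SE 0.18, limma adjusted p = 0.416).

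The extremes of the widest ranges mostly fell on 2 of the CRF6oe arrays. Over the 6 CRF6oe arrays 13 genes ranged over more than 0.5 log2 units, namely ccsA, ndhH, psaJ, psbM, psbN, psbT, rpl32, rpl33, rpoB, rpoC1, rpoC2, rps16 and rps18. Of these, 12 were lowest on array 1 of the BA group and 10 were highest on array 1 of the H2O2 group. The rpl33 gene, for another protein of the large ribosomal subunit, had the widest range, with 12.32 and 11.71 with H2O2, 10.13 and 11.82 with BA, and 11.63 and 11.87 untreated. Without BA array 1 its BA change was 0.07 in place of -0.78, and that of psbN was 0.05 in place of -0.50. Without BA array 2 the change of rpl33 was -1.62 and was called (limma adjusted p = 0.013). The widest ranges fell on the dimmer genes. Over the CRF6oe arrays the median range was 0.17 for the 36 genes with a WT mean over 13, 0.36 for the 19 of 12 to 13 and 0.97 for the 8 under 12.

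**Figure D2:**
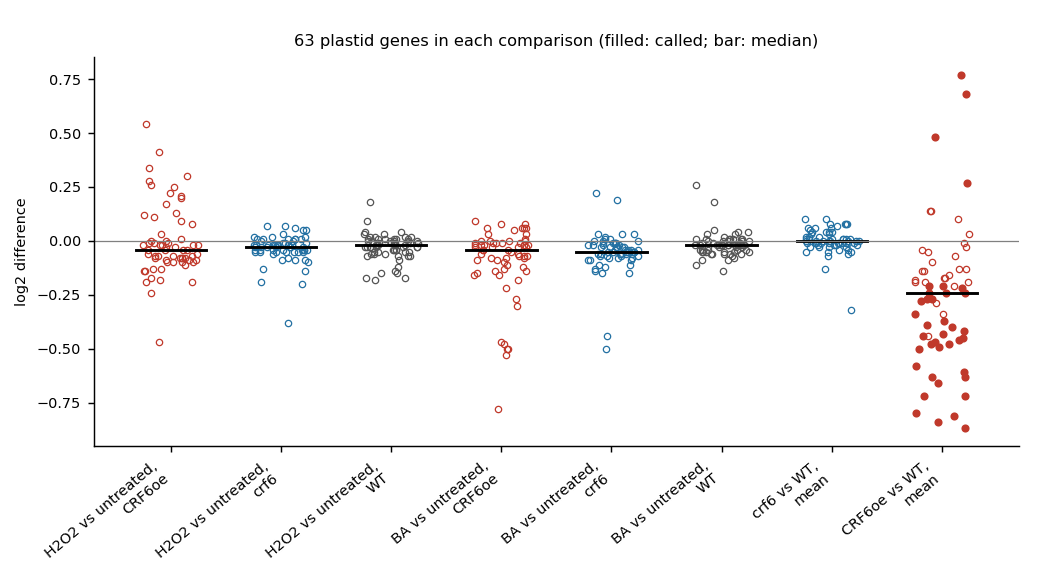
Each point is 1 of the 63 plastid genes and the vertical axis is its log2 difference in the comparison named below. Filled points were called by limma, and bars are medians. The points lie near 0 for the treatments and for crf6 against WT, and spread from -0.87 to 0.77 for CRF6oe against WT.

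The crf6 mutant did not differ detectably from WT. In limma 0 of 63 plastid genes were called untreated, with H2O2, with BA and over the mean of the 3 conditions, where 0.0%, 0.0%, 0.0% and 0.574% of all genes were called. By limma, 0 reached an unadjusted p under 0.05 in any of these 4 comparisons. Over the mean of the 3 conditions the log2 differences of crf6 minus WT had a median of 0.00 and ran from -0.32 to 0.10, with a median SE of 0.08. The lowest was psbN, at 11.85, 12.18 and 12.58 (lowest, median and highest of 6 arrays) in crf6, against 12.29, 12.50 and 12.82 in WT (difference -0.32, SE 0.18, limma adjusted p = 0.529). The 2 sets of psbN values overlap. The next were psbT at -0.13 (SE 0.13) and rps19, for a small-subunit ribosomal protein, at 0.10 (SE 0.09). The response to H2O2 or BA in crf6 minus that in WT was called for 0 of 63 genes, as it was for 0.0% of all genes, and limma gave 0 of the 63 an unadjusted p under 0.05. The crf6 and CRF6oe comparisons share the WT arrays, and the comparisons with H2O2 and with BA share the untreated arrays.

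CRF6oe was the genotype in which plastid genes differed from WT, and most of those that differed were lower. Over the mean of the 3 conditions limma called 38 of 63 genes, 34 lower and 4 higher, where 46.4% of all genes were called. For calls in 1 direction the background was 23.1% lower and 23.2% higher, so genes at large were called about evenly both ways. Most genes are far dimmer than the plastid genes, though. With the dimmest 30% of features left out, 59.5% of genes were called, 3750 lower (32.4%) and 3137 higher. The plastid shares in the main fit were 60.3% called and 54.0% called lower. The median log2 difference, CRF6oe minus WT, was -0.24 over the plastid genes and 0.03 over all genes. In fold terms the 34 lower genes stood 1.15 to 1.82 times higher in WT, with a median of 1.37. The 25 genes without a call ran from -0.44 to 0.14, and 21 of them were below 0. Above 0 among these were petL, rpl14, ycf3 and psbI. Many genes outside the plastid also differed in these arrays, so a call alone does not mark the plastid genes out.

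The separation could be seen array by array. In 33 genes (52.4%) all 6 CRF6oe arrays lay below all 12 crf6 and WT arrays, against 10.1% of all genes, and in 2 genes, rps14 and rpl14, all 6 lay above, against 6.95% of all genes. The other 28 genes overlapped. Within each condition the counts were smaller because only 4 arrays enter the difference. Untreated, 21 genes were called lower and 3 higher, where 25.2% of all genes were called, 14.1% lower and 11.1% higher. With H2O2 they were 20 lower and 3 higher, where 29.5% of all genes were called, 14.9% lower and 14.6% higher. With BA they were 21 lower and 1 higher, where 24.4% of all genes were called, 12.7% lower and 11.7% higher. These counts rest on the spread shared over all 18 arrays. With only the 4 arrays compared in the fit they were 8 untreated, 2 with H2O2 and 9 with BA, and the 2 with H2O2 were higher. The sign was the same in all 3 conditions for 58 of the 63 genes. Called lower in all 3 were 14 genes, namely cemA, clpP, ndhA, ndhC, ndhF, ndhG, ndhI, ndhK, petA, psbL, rpl36, rps19, rps2 and ycf4. Called higher in all 3 was rps14. With only the 4 arrays compared in the fit, limma called none of the 14 lower with H2O2, where 12 of the 63 genes had an unadjusted p under 0.05.

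The treatments did not detectably change this difference. The H2O2 response in CRF6oe minus that in WT was called for 0 of 63 genes, where 0.574% of all genes were called, and the BA response for 0 of 63, where 0.0% were. At an unadjusted p under 0.05, limma gave 2 genes for H2O2, rps16 at 0.72 (SE 0.30) and rpoB at 0.56 (SE 0.23), and 0 for BA. With a median SE of 0.21, only a difference in response of about 0.44 log2 units or more would lie outside a gene's 95% interval. That SE rests in part on the spread of other features.

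**Figure D3:**
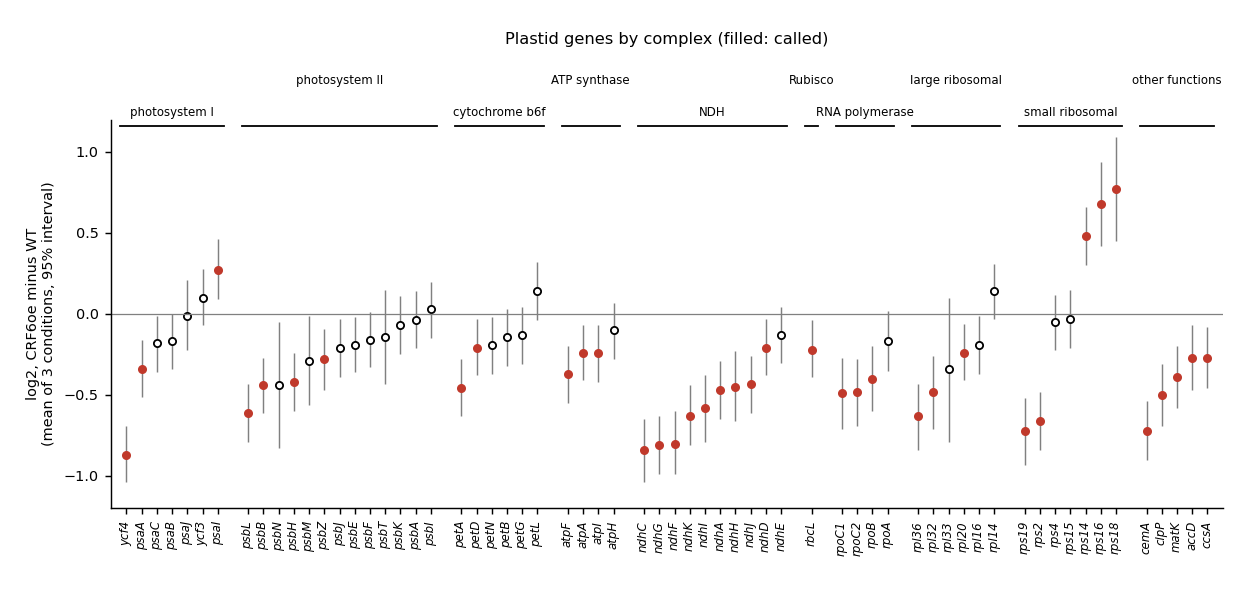
Points are the log2 difference of CRF6oe minus WT, mean of 3 conditions, with the 95% interval from limma as a line. Filled points were called. Each complex is ordered from lowest to highest. Of the 10 NDH genes 9 lie in the called, lower class, where 23.1% of all genes were called lower.

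The NDH complex held the most genes called lower. This thylakoid enzyme passes electrons from ferredoxin back into the plastoquinone pool, which drives cyclic electron flow around photosystem I. Of its 10 measured genes 9 were called lower over the mean of the 3 conditions and 7 in each single condition, with a median log2 difference of -0.52. Over all genes 23.1% were called lower over the mean, or 32.4% with the dimmest 30% of features left out. In a single condition 12.7% to 14.9% of all genes were called lower. The ndhC gene, for a membrane subunit, read 12.64 and 12.37 with H2O2, 12.62 and 12.51 with BA and 12.71 and 12.50 untreated in CRF6oe, against 13.37 and 13.37, 13.41 and 13.43, and 13.33 and 13.50 on the matching WT arrays. Its 6 CRF6oe values lie clear of the WT values in each condition, and the difference was -0.84 (SE 0.09, limma adjusted p = 2.92e-06). The membrane subunit gene ndhG had 12.19, 12.24 and 12.36 as its lowest, median and highest CRF6oe values, against 13.02, 13.05 and 13.12 in WT (difference -0.81, SE 0.08). For ndhF, another membrane subunit, the median and highest values were 12.04 and 12.30 in CRF6oe, against a lowest and median of 12.77 and 12.89 in WT (difference -0.80, SE 0.09).

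Genes for NDH subunits on the stroma side were lower as well. The differences were -0.63 for ndhK, -0.58 for ndhI, -0.45 for ndhH and -0.43 for ndhJ, each called. The membrane subunit gene ndhA stood at -0.47 and was called. The membrane subunit gene ndhD, at -0.21, had a limma adjusted p of 0.0493, and its call was lost without any 1 of the 18 arrays. The ndhE gene, also for a membrane subunit, was not called at -0.13 (SE 0.08). The NDH genes thus did not differ by 1 amount, and the 95% interval of ndhE, -0.30 to 0.04, does not reach that of ndhC, -1.04 to -0.65.

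Photosystem I, which reduces ferredoxin, had 2 genes called lower and 1 higher of 7, with a median of -0.17. The share called lower, 28.6%, is near the 23.1% over all genes, and 14.3% were called higher, against 23.2%. The lowest was ycf4, for an assembly factor of photosystem I, and it was the largest difference among all 63 genes. It read 12.42 and 12.33 with H2O2, 12.44 and 12.27 with BA and 12.25 and 12.29 untreated in CRF6oe, against 13.18 and 13.20, 13.16 and 13.22, and 13.17 and 13.25 on the matching WT arrays. The difference was -0.87 (SE 0.08, limma adjusted p = 1.01e-06), or 1.82 times higher in WT. No CRF6oe value of ycf4 came within 0.5 log2 units of a WT value. The psaA gene, for a core subunit that binds the reaction centre chlorophylls, was also lower (difference -0.34, SE 0.08, limma adjusted p = 0.00314). Its values ran from 13.36 to 13.49 in CRF6oe, against 13.75 to 13.80 in WT. The other core gene, psaB, stood at -0.17 and psaC, for the iron-sulphur subunit that hands electrons to ferredoxin, at -0.18. Neither was called, although all 6 CRF6oe arrays lay below all others for both. The psaI gene, for a small membrane subunit, was higher, at 13.07, 13.34 and 13.40 in CRF6oe, against 12.96, 13.02 and 13.12 in WT (difference 0.27, SE 0.08, limma adjusted p = 0.0155). Its H2O2 array 1 in CRF6oe fell within the WT range, and the call was lost under quantile normalization.

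Photosystem II, which splits water, had 4 of 13 genes called lower and 0 higher, with a median of -0.21. The share called lower, 30.8%, is not far from the 23.1% over all genes, so the count does not mark this complex out. These were psbL, for a small subunit (-0.61, SE 0.08), psbB, for the CP47 inner antenna (-0.44, SE 0.08), psbH, for a small phosphoprotein (-0.42, SE 0.08) and psbZ, for a small subunit (-0.28, SE 0.09). The psbZ call was lost without untreated CRF6oe array 2 or untreated WT array 2. The psbL values were 12.28, 12.45 and 12.55 in CRF6oe, against 12.99, 13.04 and 13.12 in WT. The psbB values were 13.28, 13.38 and 13.47 in CRF6oe, against 13.80, 13.82 and 13.84 in WT, so both genes were separated from WT on every array. The psbA gene, by contrast, was not called. It read 13.82, 13.83 and 13.87 in CRF6oe, against 13.82, 13.89 and 13.93 in WT (difference -0.04, 95% interval -0.21 to 0.14). The largest difference without a call was that of psbN, at -0.44 with an SE of 0.18. Its values were 11.10, 12.13 and 12.78 in CRF6oe, against 12.29, 12.50 and 12.82 in WT, and the groups overlap.

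In the cytochrome b6f complex, which links the photosystems, 2 of 6 genes were called lower and 0 higher (median -0.17). This share, 33.3%, is not far from the 23.1% of all genes called lower. The petA gene, for cytochrome f, was lower by the same amount in each condition, at -0.45 untreated, -0.46 with H2O2 and -0.45 with BA, and its mean difference was -0.46 (SE 0.08, limma adjusted p = 3.10e-04). Its values were 12.73, 12.81 and 12.85 in CRF6oe, against 13.23, 13.27 and 13.28 in WT. The petD gene, for subunit IV, was called at -0.21 with a limma adjusted p of 0.0489, and that call was lost without any 1 array. Of the ATP synthase genes 3 of 4 were called lower and 0 higher (median -0.24), where 23.1% of all genes were called lower. The lowest was atpF, for subunit b (-0.37, SE 0.08). The others called, atpA and atpI, each stood at -0.24, and both calls were lost with only the groups compared in the fit. The atpI call was also lost with CRF6oe H2O2 array 1 and BA array 1 left out. The atpH gene, for subunit c of the membrane ring, stood at -0.10 and was not called. The rbcL gene was lower at 13.53, 13.61 and 13.67 in CRF6oe, against 13.80, 13.81 and 13.85 in WT (difference -0.22, SE 0.08, limma adjusted p = 0.0414). All 6 values lie below every WT value, while the call was lost without any 1 of 17 of the 18 arrays.

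The genes of gene expression moved unevenly. For the plastid-encoded RNA polymerase 3 of 4 genes were called lower and 0 higher, where 23.1% of all genes were called lower. These were rpoC1 at -0.49 (SE 0.10), rpoC2 at -0.48 (SE 0.10) and rpoB at -0.40 (SE 0.09). The alpha subunit gene rpoA stood at -0.17 and was not called. The rpoB values were 11.41 and 11.41 in untreated CRF6oe, against 12.02 and 11.91 in untreated WT, and 11.24 and 11.32 with BA in CRF6oe, against 11.91 and 11.96 with BA in WT. With H2O2 they were 12.01 and 11.63 in CRF6oe, against 11.81 and 11.82 in WT, so that the groups overlapped. The 3 core genes rpoB, rpoC1 and rpoC2 were each called lower untreated and with BA, and none of them with H2O2, where they stood at 0.01, -0.14 and -0.17. This difference between conditions was tested by the interaction and was not called for any of them. CRF6oe H2O2 array 1, the array on which the dim genes were high, is 1 of the 2 arrays behind the H2O2 values. For rpoB it read 12.01, above both WT H2O2 arrays, while CRF6oe H2O2 array 2 read 11.63, below both. Why the 2 arrays differ was not tested.

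Among genes for the small ribosomal subunit 3 of 7 were called higher and 2 lower, and the median was -0.03. Over all genes 23.2% were called higher and 23.1% lower. The rps14 gene stood apart from WT on every array, at 13.35 and 13.24 with H2O2, 13.23 and 13.36 with BA and 13.38 and 13.36 untreated in CRF6oe, against 12.78 and 12.93, 12.81 and 12.84, and 12.77 and 12.89 on the matching WT arrays (difference 0.48, SE 0.09, limma adjusted p = 2.85e-04). The rps18 gene was higher by 0.77 (SE 0.15) and rps16 by 0.68 (SE 0.12). They were the dimmest plastid genes, and both were called higher untreated and with H2O2 but not with BA. The rps18 values were 11.47 and 10.83 with H2O2, 10.22 and 11.13 with BA and 11.12 and 11.24 untreated in CRF6oe, against 10.18 and 10.05, 10.36 and 10.47, and 10.07 and 10.25 in WT. BA array 1 alone lay inside the WT range. The untreated call of rps18 was lost without CRF6oe array 2 or WT array 1, and its H2O2 call without CRF6oe array 1 or WT array 2. The lower genes were rps19, at 11.85, 12.11 and 12.30 in CRF6oe, against 12.74, 12.82 and 12.89 in WT (difference -0.72, SE 0.09), and rps2, at 11.59, 11.72 and 12.05 in CRF6oe, against 12.38, 12.42 and 12.48 in WT (difference -0.66, SE 0.09). Ribosomal protein genes of the same subunit thus lay on both sides of WT.

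Of the large ribosomal subunit genes 3 of 6 were called lower and 0 higher (median -0.29), where 23.1% of all genes were called lower. These were rpl36 (-0.63, SE 0.10), rpl32 (-0.48, SE 0.11) and rpl20 (-0.24, SE 0.08). The rpl20 call was lost without any 1 of 7 arrays. The rpl14 gene was higher than all other arrays on all 6 CRF6oe arrays, at 13.21 to 13.34 in CRF6oe, against 13.04 to 13.15 in WT, but its difference of 0.14 (SE 0.08) was not called. The 5 genes of other functions were each called lower, with a median of -0.39, against the same 23.1% of all genes. They were cemA, for an envelope membrane protein (-0.72, SE 0.09), clpP, for a subunit of the Clp protease (-0.50, SE 0.09), matK, for an intron maturase (-0.39, SE 0.09), accD, for a subunit of the acetyl-CoA carboxylase of fatty acid synthesis (-0.27, SE 0.09), and ccsA, which acts in the maturation of c-type cytochromes (-0.27, SE 0.09). The clpP values were 12.39, 12.60 and 12.68 in CRF6oe, against 13.02, 13.06 and 13.18 in WT. The accD values were 11.81, 11.96 and 12.30 in CRF6oe, against 12.23, 12.25 and 12.30 in WT, and the overlap came from H2O2 array 1. The accD call was lost without CRF6oe BA array 1, CRF6oe H2O2 array 2, WT BA array 1 or untreated WT array 2, and the ccsA call without CRF6oe BA array 1, CRF6oe H2O2 array 2 or untreated WT array 2.

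**Figure D4:**
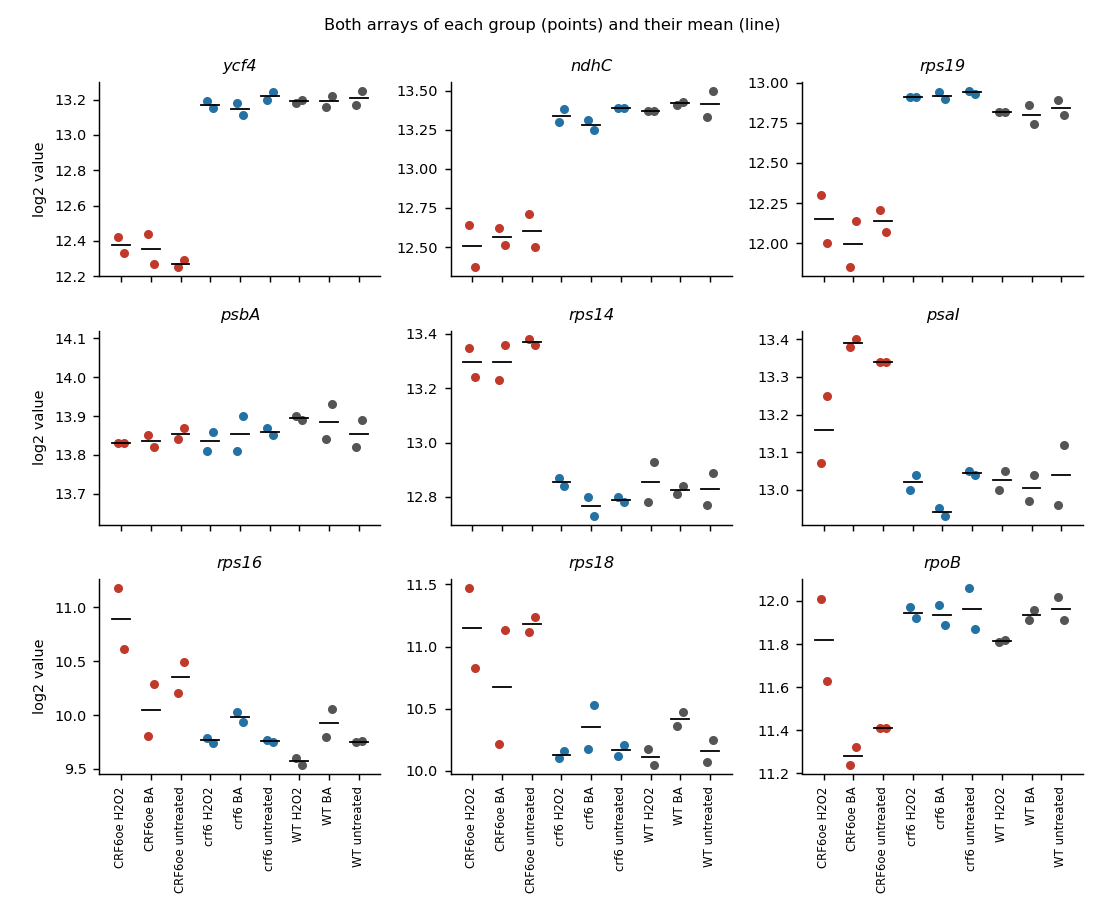
Points are the log2 values of both arrays of each group for 9 genes, and lines are the group means. CRF6oe is lower for ycf4, ndhC and rps19, level for psbA and higher for rps14, while rps16, rps18 and rpoB vary most within CRF6oe.

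Neighbouring genes on the plastid chromosome gave a mixed picture. The order was taken from the RefSeq gene table of assembly TAIR10.1, and no coordinates are given because the array annotation names no build. Among runs in the same direction, ndhJ, ndhK and ndhC were lower together at -0.43, -0.63 and -0.84, and so were ndhG, ndhI, ndhA and ndhH at -0.81, -0.58, -0.47 and -0.45. The genes next to this last run differed less, with ndhD, psaC and ndhE before ndhG at -0.21, -0.18 and -0.13, and rps15 after ndhH at -0.03. The run rps2, rpoC2, rpoC1 and rpoB was lower at -0.66, -0.48, -0.49 and -0.40. In other places the sign changed between neighbours. The psaI gene at 0.27 stands beside ycf4 at -0.87, cemA at -0.72 and petA at -0.46, and rps14 at 0.48 stands beside psaB at -0.17 and psaA at -0.34. The rps18 gene at 0.77 lies between rpl33 at -0.34 and rpl20 at -0.24. Over the 62 neighbouring pairs 16 had opposite signs, and the differences of neighbours had a correlation of r = 0.141, given as a description across pairs of genes that share arrays. Of the 63 differences 55 were below 0, so runs of lower genes and single higher ones would be met in any order. No comparison with a random order was made.

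**Figure D5:**
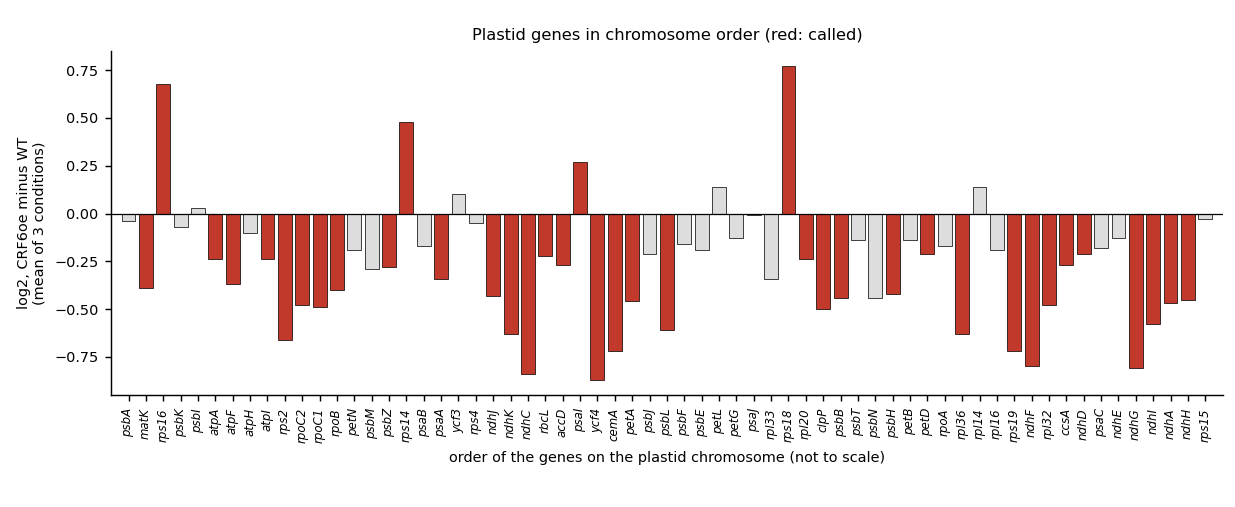
Bars are the log2 difference of CRF6oe minus WT, mean of 3 conditions, for the 63 genes in their order on the plastid chromosome, evenly spaced. Red bars were called. Most bars lie below 0, as in the run from ndhG to ndhH, and higher genes such as psaI and rps18 stand singly.

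The difference was also set against a gene's brightness. Across the 63 genes the WT mean level and the CRF6oe minus WT difference had Pearson r = -0.293 and Spearman rho = 0.108, and the WT mean level and the size of the difference had Spearman rho = -0.335. These are descriptions across genes that share arrays. Of the 36 genes with a WT mean over 13, 20 were called lower and 1 higher, with a median of -0.23. Of the 19 genes of 12 to 13, 11 were called lower and 1 higher, with a median of -0.44. Of the 8 genes under 12, 3 were called lower and 2 higher, with a median of -0.28. Lower genes were therefore found at every level, including near the top of the scale. Over all genes, of any level, 23.1% were called lower and 23.2% higher.

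The nuclear partners and the other organelle genome were compared from lists of known genes. Of 40 nuclear genes for subunits of the photosynthetic complexes 9 had a feature of their own. In limma 0 of these 9 were called with H2O2 or BA in any genotype, where 4 had an unadjusted p under 0.05 with BA in CRF6oe and 0 in the other treatment comparisons within a genotype. In crf6 against WT, mean of 3 conditions, 0 were called and 2 had an unadjusted p under 0.05. Over the mean of the 3 conditions in CRF6oe against WT, 5 were called lower and 0 higher, with a median of -0.77, where 23.1% of all genes were called lower and 23.2% higher. They were NdhL, for a membrane-bound NDH subunit (9.55 in CRF6oe, against 10.88 in WT, difference -1.33, SE 0.13), PSBW, for a small photosystem II subunit (11.22 in CRF6oe, against 12.33 in WT, difference -1.10, SE 0.11), PSAE-1, for a stroma-side photosystem I subunit (-1.06, SE 0.10), ATPC1, for the gamma subunit of ATP synthase (-0.98, SE 0.11) and NdhN, for a stroma-side NDH subunit (-0.77, SE 0.19). Within a condition, 4 of the 9 were called lower in CRF6oe than in WT untreated, 4 with H2O2 and 5 with BA. In a single condition 12.7% to 14.9% of all genes were called lower. With H2O2 1 was called higher, PSB27, for a photosystem II assembly protein (0.69, SE 0.25, limma adjusted p = 0.0467), where 14.6% of all genes were called higher. Untreated and with BA 0 were called higher. Of the nuclear sigma factors and phage-type polymerases that transcribe plastid genes 1 of 8 was measured, and of nuclear plastid ribosomal proteins 1 of 19. Neither was called by limma in any comparison, where the polymerase had an unadjusted p under 0.05 in 4 comparisons and the ribosomal protein in 0. None of the 13 proteins associated with the plastid polymerase and none of the 9 plastid RNA decay and RNA-binding proteins had a feature of its own.

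The mitochondrial genes were labelled by the same oligo-dT priming. Of 12 measured, 0 were called in limma with either treatment in any genotype or in crf6 against WT, and 0 had an unadjusted p under 0.05 there. In CRF6oe against WT, mean of 3 conditions, 3 were called higher and 4 lower, with a median of -0.03, where 23.2% of all genes were called higher and 23.1% lower. With H2O2 the 12 changes ran from -0.26 to -0.04 in WT, from -0.32 to 0.04 in crf6 and from -0.07 to 0.12 in CRF6oe. In CRF6oe against WT, mean of 3 conditions, the highest was nad5, for a subunit of respiratory complex I, at 12.28 in CRF6oe, against 11.60 in WT (0.68, SE 0.10). The lowest was nad6, for another subunit of that complex, at 11.35 in CRF6oe, against 11.85 in WT (-0.51, SE 0.10). The median of the plastid genes in the same comparison was -0.24, and the difference between the organelles was not tested.

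A single array left out moved the CRF6oe counts within a condition by over 1.5 times. The mean over the 3 conditions held 32 to 39 calls without each array in turn, and 31 of the 38 genes, 27 of them lower, kept their call each time. The untreated count was 9 without WT array 1 or CRF6oe array 2, 11 without WT array 2 and 13 without CRF6oe array 1, against 24 with all arrays. With H2O2 the count was 10 without WT array 2, 12 without CRF6oe array 2, 14 without WT array 1 and 15 without CRF6oe array 1, against 23. With BA it was 12 without either WT array and 14 without CRF6oe array 1, against 22. With CRF6oe H2O2 array 1 and BA array 1 both left out, an alternative chosen after the data were seen, the mean comparison still held 32 lower and 4 higher genes. The plastid genes vary less between replicates than most genes, with a median residual SD of 0.06 against 0.234 over all features of 1 gene. Most of those features are far dimmer, and the SD was not compared at equal brightness. Because limma draws each gene's spread toward that of all features, calls and intervals of the plastid genes rest in part on these dimmer features. When limma let its prior follow brightness, also chosen after the data were seen, 48 were called lower and 6 higher, and the treatments again gave 0.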

How the data were processed

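Biotin-labelled cRNA was made from oligo-dT-primed total RNA and hybridised to one-colour arrays, per the labels' protocols. The authors deposited 1 log2-scale value per feature and array for 38408 features. The sources used here give no log base, background correction, normalization or software. The values were used as deposited. A probe table paired 16722 features with exactly 1 gene, 759 with several and left 20927 unlisted. Plastid genes were found by gene ID in the RefSeq gene table, assembly TAIR10.1.

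A linear model with 1 mean per group was fitted to all 18 arrays with limma 3.58.1 in R 4.3.3, with 9 residual and 5.63 prior degrees of freedom. Two-sided p-values were adjusted over the 16722 features in each of 20 comparisons. Counts over all genes used the brightest feature of each of 16550 genes. The model was tested on simulated data.

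The plastid genes, the gene groups and the nuclear lists were chosen with earlier results of these data known. Genes were named if called in the mean CRF6oe comparison, if among the largest changes of a comparison, or if they were psaA, psbA, rbcL, rpoB, accD or clpP. Further genes and per-array values were added after their values were seen. Alternatives were quantile normalization, median centring, only the groups compared, all features tested, the dimmest 30% of features left out, the mean of a gene's features, a replicate block and each array left out. No sequences were used.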

Additional observations from a re-analysis of the deposited data

Results flagged for a closer look

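Features paired with several plastid genes, or with both copies of a gene in the inverted repeat, stood outside the 63 genes and also showed lower values in CRF6oe. In a limma fit over all features, CRF6oe minus WT over the mean of 3 conditions was -0.83 for the feature shared by rps3 and rpl22, genes for ribosomal proteins (11.85 in CRF6oe, against 12.68 in WT, adjusted p = 1.48e-05). For rps12, a ribosomal protein gene whose transcript is joined from separate pieces, 1 feature stood at -0.82 (12.42 in CRF6oe, against 13.24 in WT) and the other at -0.29 (12.83 in CRF6oe, against 13.12 in WT). The ribosomal protein genes rps7, rpl2 and rpl23 stood at -0.50, -0.42 and -0.26. The feature of psbC and psbD, for photosystem II core proteins, stood at -0.28, and that of atpB and atpE, for ATP synthase subunits, at -0.22. Each of these 8 was called lower, where in the main fit 46.4% of all genes were called and 23.1% were called lower. The features of ndhB (-0.02), ycf1 (-0.19) and ycf2 (0.16) were not called. The NDH gene ndhB, at 12.72 in CRF6oe, against 12.74 in WT, was therefore level where 9 of the 10 NDH genes with a feature of their own were lower. Which of the genes on a shared feature gave its value cannot be told apart.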

How the results depend on the processing

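Over 27 settings the median CRF6oe difference within a condition or over the mean stayed below 0, while medians near 0 in the other comparisons took either sign. Of the calls, 28 of the 38 genes called in CRF6oe against WT, mean of 3 conditions, kept their call in every one, 25 lower and 3 higher. Treatment counts stayed at 0, except for 1 call with BA in CRF6oe (range 0 to 1 over single arrays left out). The labels do not say that a replicate number marks a shared batch or day. Deviations of same-numbered arrays correlated at -0.203 to 0.331 over 36 pairs of groups, at 0.218 to 0.331 among the WT groups, and over 0.1 in 7 pairs, so the numbers were not taken as pairing. With the replicate number as a block the CRF6oe mean count was 36.

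Under quantile normalization the median CRF6oe difference was -0.39 untreated, -0.40 with H2O2, -0.38 with BA and -0.40 over the mean, and the H2O2 response in crf6 minus that in WT had a median of 0.04. Under median centring the medians were -0.18 for CRF6oe untreated, -0.27 for CRF6oe with H2O2, 0.05 for H2O2 in WT, 0.03 for H2O2 averaged over crf6 and WT, -0.04 for crf6 against WT with H2O2 and -0.13 for the H2O2 response in CRF6oe minus that in WT. Over all genes the CRF6oe mean split was 3844 higher and 3829 lower as deposited, and 3265 and 4232 under quantile normalization. With only the groups compared, CRF6oe counts were 8 untreated, 2 with H2O2 and 9 with BA. With a brightness trend in the prior, chosen after the data were seen, they were 36 with H2O2 and 39 with BA. Without CRF6oe H2O2 array 1 and BA array 1 together the CRF6oe medians were -0.27 with H2O2 and -0.21 with BA.

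Without single arrays the CRF6oe counts ranged over 9 to 25 untreated, 10 to 23 with H2O2, 12 to 23 with BA and 32 to 39 for the mean. Their medians ranged over -0.25 to -0.21, -0.27 to -0.18, -0.32 to -0.21 and -0.25 to -0.22, and that of the H2O2 response in CRF6oe minus WT over -0.06 to 0.04.

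Signs turned only for changes that were not called, and the causes were not tested. Over single arrays left out, psbT in WT ranged over -0.46 to 0.12 with H2O2 and -0.42 to 0.15 with BA, the highest without untreated WT array 2. Its H2O2 response in crf6 minus WT ranged over -0.50 to 0.08, the highest without untreated WT array 1. Without CRF6oe BA array 1, alone or together with H2O2 array 1, rpl33 stood at 0.07 and psbN at 0.05 with BA in CRF6oe, and the BA response of rpl33 in CRF6oe minus WT was 0.03. Without CRF6oe BA array 2 these were -1.62, -1.06 and -1.65, and the first was called.

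The number of arrays, 2 in each group, limits the precision. The CRF6oe arrays differ from all others as a set, the genotypes could not be checked on CRF6 itself.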
